A study of Homo sapiens with 6 samples.

Results

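The D-type cyclins CCND1, CCND2 and CCND3, their partner kinases CDK4 and CDK6, the INK4 inhibitors CDKN2A, CDKN2B, CDKN2C and CDKN2D, and the retinoblastoma gene RB1 were followed in U87 cells, an established human glioma line, after knockdown of PCGF1. The 10 genes were chosen by name as a pathway, but with earlier results of the same comparison known, including the values of CCND1 and CDK6. Their fold changes and calls are therefore descriptions of this comparison, and no count over them supports a statement about the pathway. Probe sets were taken where the array's annotation gave exactly 1 symbol. By that rule 9 of the 10 genes were measured, by 27 of the 49293 probe sets on the array, among 18132 genes in all. CDKN2C had no such probe set, so its expression was not analysed, and only the DNA before its start sites was searched.

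Total RNA was hybridised to 6 Affymetrix arrays. The 3 arrays labelled U87-PCGF1-shRNA_T0 held RNA of cells in which lentivirus delivered a hairpin against PCGF1, and the 3 labelled U87-NC_T1 held RNA of cells that received the negative control virus. The culture medium of both lines was DMEM plus fetal bovine serum, and no other treatment is named. The labels do not explain T0 and T1, which cannot be told apart from the knockdown, and they do not say how many hairpins were used or whether the arrays, which they call biological replicates, came from separate cultures, so that the spread between arrays may be partly technical.

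In textbook accounts, a D-type cyclin binds CDK4 or CDK6, and the active kinase phosphorylates the RB1 protein, which then releases E2F transcription factors and lets a cell enter S phase. INK4 proteins bind CDK4 and CDK6 and keep the cyclin out. The INK4 genes CDKN2A and CDKN2B lie side by side and are known targets of Polycomb repression, and CDKN2A is widely described as deleted in U87. PCGF1 is a subunit of a Polycomb complex that KDM2B, which binds CpG-rich DNA, brings to chromatin.

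Each deposited value is a log2 signal of a probe set relative to the median of its 6 arrays, so 0 marks that median and neither presence nor absence of a transcript can be read from it. For the same reason the line's own markers could not be checked as levels. None of 6 glioma and astrocyte markers was called, and of 12 markers of epithelial, leukocyte, endothelial and fibroblast cells 1 was called higher in knockdown arrays. This was PDGFRB at 0.28 ± 0.06 (log2 fold change, SE), a gene that glioma cells can also express. Among all genes 11.0% were called. PCGF1 itself, which rested on 1 probe set, was at 74.3% of the control level in knockdown arrays (95% interval 67.8 to 81.5%, limma adjusted p = 0.00410). The 3' minus 5' log2 signal of ACTB lay between 0.01 and 0.11 in knockdown arrays and between -0.07 and 0.04 in control arrays. That of GAPDH lay between -0.01 and 0.04 in knockdown arrays and between -0.01 and 0.01 in control arrays. The ranges overlapped for both. Since each probe set is centred, these values show only shifts between arrays and not how intact the RNA was. Their part in the results was not tested. In a bulk sample, fewer cells in a phase of the cycle and less RNA per cell cannot be told apart.

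CCND1 was lower in knockdown cells, at 65.3% of the control level, and the other D-type cyclins were not called. CDK6 was higher, at 141.0% of the control level, and CDK4, the INK4 genes and RB1 were not called. Whether the changes differ between these genes was not tested. A call means an adjusted p under 0.05 in limma's fit over all genes. Of the 9 genes 1 was called higher and 1 lower, where 11.0% of all genes were called, 6.36% higher and 4.63% lower. Both called genes had groups that did not overlap, and no other member did, against 32.7% of all genes. The median log2 fold change of the 9 genes was -0.011, beside -0.008 over all genes.

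CCND1 encodes cyclin D1, the D-type cyclin that mitogens induce in many cell types. Knockdown replicates 1 to 3 had log2 signals of -0.29, -0.41 and -0.23, against 0.32, 0.29 and 0.31 for control replicates 1 to 3. All knockdown arrays lay below all control arrays, and the control arrays lay closer together. CCND1 averaged -0.31 ± 0.10 in knockdown and 0.31 ± 0.02 in control (SD, n = 3 each). A log2 fold change of -0.62 ± 0.05 (SE, limma adjusted p = 0.000635) put knockdown cells at 65.3% of the control level (95% interval 60.0 to 71.0%). By size of change CCND1 was number 31 among fallen genes.

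All 4 probe sets of CCND1 were called lower in the fit over probe sets, in which 7.24% of all probe sets were called. Probe set 11751330_a_at was at -0.38, -0.51 and -0.29 in knockdown arrays, against 0.29, 0.29 and 0.42 in control arrays, the largest change of the 4 at -0.73 ± 0.07 (SE, limma adjusted p = 0.00212). Probe set 11721257_at fell by 0.66, and 11721255_at, with the smallest change, by 0.45. Probe set 11721256_a_at fell by 0.62 but had the widest spread of the 4, from -0.47 to -0.18 in knockdown arrays and from 0.18 to 0.58 in control arrays (limma adjusted p = 0.0226).

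CCND2, the cyclin D2 gene, was not called. Its log2 signals of 0.02, -0.02 and 0.01 in knockdown arrays lay within the control values of 0.03, -0.11 and -0.04. The fit gave a log2 fold change of 0.04 ± 0.05 (SE, limma adjusted p = 0.601). The 95% interval of 95.9 to 110.8% of the control level holds no fall as large as that of CCND1. Probe set 11719198_s_at was at 0.14 and the others at -0.02 and 0.01, and without the _s_at probe set the gene stood at -0.01.

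CCND3 encodes cyclin D3. Its log2 signals were 0.05, 0.002 and 0.01 in knockdown arrays and -0.03, -0.002 and 0.02 in control arrays, which overlap. It had a log2 fold change of 0.03 ± 0.04 (SE, limma adjusted p = 0.699), or 101.9% of control in knockdown cells, with a 95% interval of 96.0 to 108.3%. Its 2 probe sets were at 0.06 and 0.0003.

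**Figure D1:**
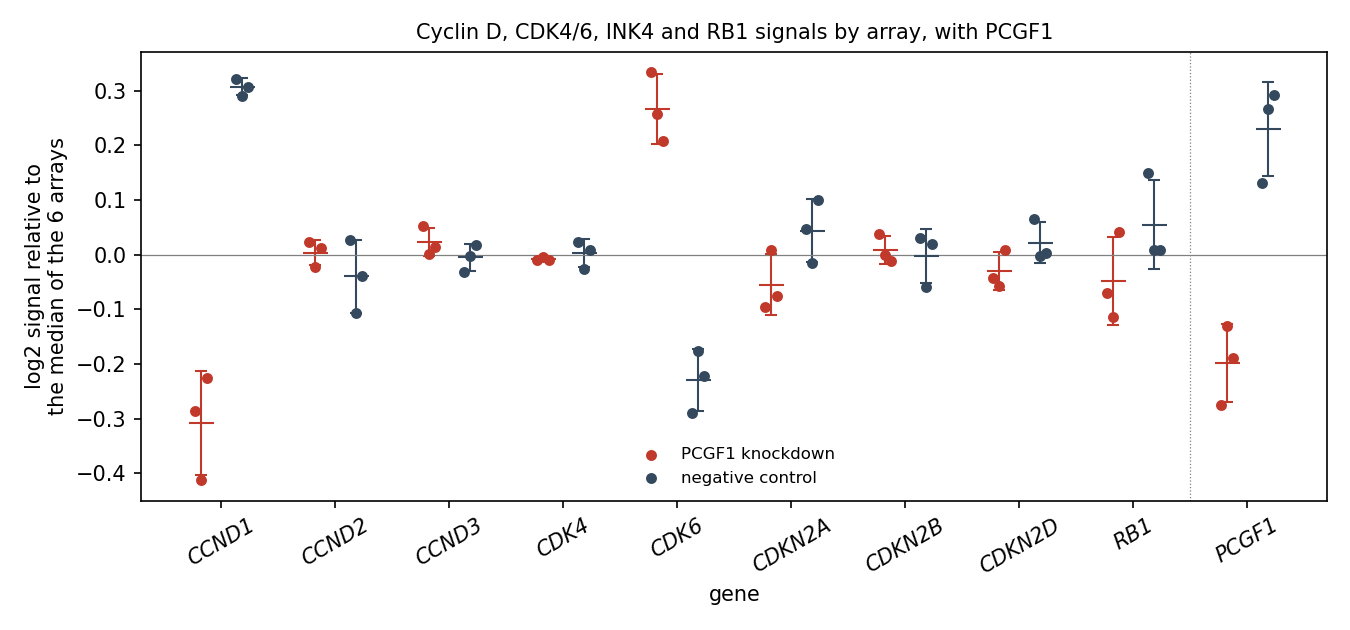
Log2 signal relative to the median of the 6 arrays (vertical axis) for each measured gene and for PCGF1, with knockdown arrays in red on the left of each pair and control arrays in dark blue on the right. Points are arrays, averaged over probe sets, and bars show the mean ± SD (n = 3 each). The groups lie apart for CCND1, CDK6 and PCGF1 and overlap for the other genes.

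CDK6, a kinase partner of the D-type cyclins, moved the opposite way to CCND1. Knockdown replicates 1 to 3 had log2 signals of 0.33, 0.26 and 0.21, against -0.29, -0.18 and -0.22 for control replicates 1 to 3. Every knockdown array lay above every control array. The means were 0.27 ± 0.06 in knockdown and -0.23 ± 0.06 in control (SD, n = 3 each), a log2 fold change of 0.50 ± 0.05 (SE, limma adjusted p = 0.00118). Knockdown cells stood at 141.0% of the control level (95% interval 130.3 to 152.7%), and CDK6 was number 56 among risen genes by size.

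All 4 CDK6 probe sets had positive fold changes and 3 were called higher. Probe set 11723241_at had the largest, 0.63 ± 0.11 (SE, limma adjusted p = 0.0142), with 0.57, 0.29 and 0.18 in knockdown arrays against -0.26, -0.18 and -0.41 in control arrays. Probe sets 11723243_at and 11723244_at rose by 0.56 and 0.52. Probe set 11723242_at was at 0.28 ± 0.11 and was not called (limma adjusted p = 0.167). In it the groups overlapped, because knockdown replicate 3 at -0.04 lay below control replicate 2 at 0.04.

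CDK4 is the other kinase that D-type cyclins activate. Its values differed little among the arrays, at -0.01, -0.004 and -0.01 in knockdown arrays and 0.02, -0.03 and 0.01 in control arrays. A log2 fold change of -0.01 ± 0.04 was fitted (SE, limma adjusted p = 0.889), and the 95% interval of the knockdown level ran from 93.6 to 105.2% of control. Of its 4 probe sets 3 lay between 0.001 and 0.02, and 11753378_a_at was at -0.07, with groups that did not overlap and no call (limma adjusted p = 0.429).

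The DNA before the start sites of the kinases and of CDKN2A is shown because CDK6 was called and CDK4 was not, and because CDKN2A has separate starts for the INK4A and ARF products. Each sequence is the 250 bases before an annotated start in RefSeq (GRCh38.p14), 5' to 3' on the gene's strand, with CG dinucleotides in capitals. CDK6 has 2 annotated starts in the table, and the window of the one farther upstream is printed. All 4 printed windows lie on the minus strand, for CDK6 at chr7:92836574-92836823, for CDK4 at chr12:57752311-57752560, for the ARF start of CDKN2A at chr9:21995325-21995574 and for its INK4A start at chr9:21974858-21975107.
CDK6: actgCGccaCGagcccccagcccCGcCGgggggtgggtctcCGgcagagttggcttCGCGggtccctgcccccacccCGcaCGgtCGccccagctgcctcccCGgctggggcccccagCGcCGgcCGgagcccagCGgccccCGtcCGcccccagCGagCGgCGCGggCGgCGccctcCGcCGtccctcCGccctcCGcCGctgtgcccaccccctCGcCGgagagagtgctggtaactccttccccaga
CDK4: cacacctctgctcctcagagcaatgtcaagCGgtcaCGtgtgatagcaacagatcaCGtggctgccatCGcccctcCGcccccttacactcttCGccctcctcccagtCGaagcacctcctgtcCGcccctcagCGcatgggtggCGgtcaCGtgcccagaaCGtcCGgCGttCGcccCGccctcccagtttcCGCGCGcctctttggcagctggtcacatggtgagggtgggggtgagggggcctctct
CDKN2A, ARF start: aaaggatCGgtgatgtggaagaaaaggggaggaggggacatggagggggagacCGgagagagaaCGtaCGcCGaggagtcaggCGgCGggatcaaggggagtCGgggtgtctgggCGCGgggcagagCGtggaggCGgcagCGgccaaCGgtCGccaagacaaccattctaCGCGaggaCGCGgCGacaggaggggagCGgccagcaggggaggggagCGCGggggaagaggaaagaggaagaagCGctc
CDKN2A, INK4A start: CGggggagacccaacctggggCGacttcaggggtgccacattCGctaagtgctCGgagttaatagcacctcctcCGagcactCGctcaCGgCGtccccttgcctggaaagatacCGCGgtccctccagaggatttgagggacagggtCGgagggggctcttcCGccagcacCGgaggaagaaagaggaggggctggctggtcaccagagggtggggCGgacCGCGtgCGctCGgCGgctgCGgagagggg

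The printed CDK6 window held 30 CG dinucleotides, more than 87.6% of the 35116 windows of this length in the table. The window of the other CDK6 start, at chr7:92833960-92834209, held 23, more than 74.2% of them. The CDK4 window held 19, more than 65.4% of them, and the CDKN2A windows held 24 and 20. In the CDK4 window the E-box CACGTG, a motif that MYC and its partners bind, occurred 3 times, and it occurred in neither the 2 CDK6 windows nor the 2 CDKN2A windows. That motif was in 6.35% of all windows, and its reverse complement is the same letters. The GC box GGGCGG, searched on both strands, was in 42.6% of all windows and occurred 3 times each in the printed CDK6 window and the CDK4 window and 0 times in the other CDK6 window. The E2F motifs TTTGGCGC and TTTCGCGC, searched on both strands, were in 0 of the 14 windows of 8 member genes and in 0.968% of all windows. The 8 genes include CDKN2C, whose expression was not measured. The only RB1 window in the table, at chr13:48476200-48476449, held 0 CG dinucleotides. Whether it lies before the main start of RB1 was not checked, so it is not a description of the main RB1 promoter. Only starts in the table were searched, so the count may not cover the main start of each gene. These matches describe the letters and show no binding. CCND1 and CCND2 had no entry in the table.

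**Figure D2:**
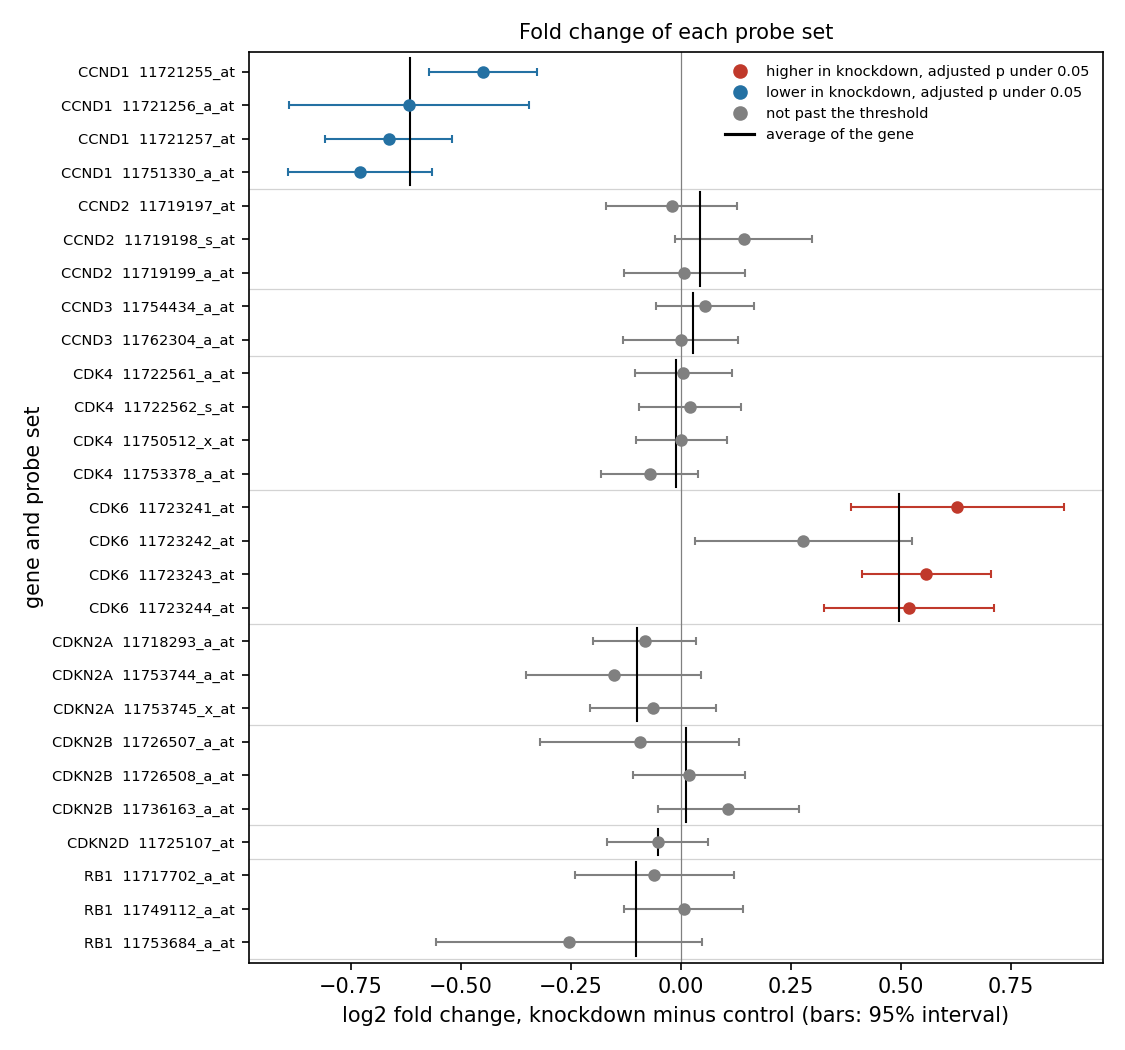
Log2 fold change, knockdown minus control (horizontal axis), of each of the 27 probe sets with its 95% interval from limma. Black lines give the average of the gene. The 4 CCND1 probe sets lie left of 0 and the 4 CDK6 probe sets right of it, and intervals of all probe sets of the other genes cross 0.

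None of the 3 measured INK4 genes was called. CDKN2A, which encodes the INK4A inhibitor and, in another reading frame, the ARF protein that stabilises p53, was at -0.10, 0.01 and -0.08 in knockdown arrays and at 0.05, -0.02 and 0.10 in control arrays. Knockdown replicate 2 lay above control replicate 2, so the groups overlapped. CDKN2A had a log2 fold change of -0.10 ± 0.05 (SE, limma adjusted p = 0.237), with a 95% interval of 86.5 to 100.8% of the control level. All 3 probe sets had negative fold changes, at -0.08, -0.15 and -0.06, and 11718293_a_at had groups that did not overlap.

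CDKN2B, the neighbouring INK4B gene that TGF-beta can induce, was at 0.04, -0.001 and -0.01 in knockdown arrays and at 0.03, -0.06 and 0.02 in control arrays. Knockdown minus control came to 0.01 ± 0.04 on the log2 scale (SE, limma adjusted p = 0.899). The probe sets differed in sign, from -0.09 for 11726507_a_at to 0.11 for 11736163_a_at, and none was called. Values relative to a median do not show whether CDKN2A or CDKN2B was transcribed or present in these cells. The missing calls are therefore no evidence that either gene was expressed and unchanged. CDKN2D, the INK4D gene, rested on 1 probe set, at -0.04, -0.06 and 0.01 in knockdown arrays and 0.07, -0.002 and 0.002 in control arrays. The groups overlapped here as well, with a difference of -0.05 ± 0.04 (SE, limma adjusted p = 0.463).

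RB1, the substrate of the cyclin D kinases, was at -0.07, -0.11 and 0.04 in knockdown arrays and at 0.15, 0.01 and 0.01 in control arrays. Knockdown replicate 3 lay above 2 of the 3 control arrays. RB1 had a log2 fold change of -0.10 ± 0.06 (SE, limma adjusted p = 0.312), with a 95% interval of 84.8 to 102.2% of the control level. Most of it came from probe set 11753684_a_at at -0.25 ± 0.13, while the others were at -0.06 and 0.01.

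Differences between the log2 signals of 2 genes on the same array are given as a description. CDK6 minus CCND1 was 0.62, 0.67 and 0.43 on the knockdown arrays, against -0.61, -0.47 and -0.53 on the control arrays. CDK6 minus CDK4 averaged 0.27 ± 0.06 in knockdown and -0.23 ± 0.08 in control (SD, n = 3 each). CCND1 minus CCND3 averaged -0.33 ± 0.09 in knockdown and 0.31 ± 0.04 in control, and CCND1 minus CCND2 averaged -0.31 ± 0.08 in knockdown and 0.35 ± 0.05 in control. The groups did not overlap in any of these 4 differences. Each pair holds a gene that was called, so the separation is not independent of that call and supports neither change. The pairs were picked with the fold changes known and were given no test, and since each gene's signal is relative to its own median they do not show which transcript was more abundant.

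**Figure D3:**
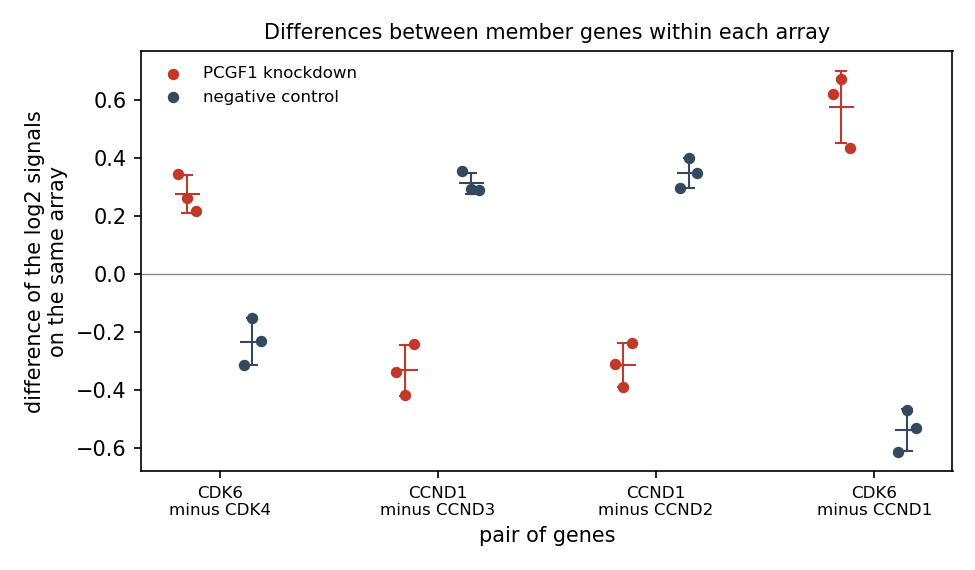
Difference between the log2 signals of a pair of genes on the same array (vertical axis), for 4 pairs, with knockdown arrays in red on the left and control arrays in dark blue on the right. Points are arrays and bars show the mean ± SD (n = 3 each). In every pair the knockdown arrays lie on the other side of 0 from the control arrays, with pairs picked to hold a called gene and every probe set centred on its median.

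Over the 6 arrays the signals closest to CCND1, by root mean square difference, were those of the cytokine gene LIF at 0.0415, the RNA methyltransferase gene FTSJ1 at 0.0419 and the immediate-early gene IER3 at 0.0429. Those closest to CDK6 were CHI3L1, which encodes a secreted chitinase-like glycoprotein, at 0.0275, the ubiquitin ligase gene FBXO32 at 0.0310 and the netrin-G1 gene NTNG1 at 0.0322. Their Pearson correlations with the member ranged from 0.992 to 0.999. With 6 arrays in 2 groups, many genes that differ between the groups correlate highly, so the list is a description.

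Downstream of the kinases, 7 of 18 E2F target genes of S phase entry were called lower and 0 higher. Among all genes 4.63% were called lower and 6.36% higher. All 18 had negative fold changes, against 53.4% of all genes. The list's median was -0.15. RRM1 and RRM2, the ribonucleotide reductase subunits, fell by 0.29 and 0.23, and MCM6, of the replicative helicase, by 0.23. CHEK1, a checkpoint kinase, fell by 0.21. Of the 7, RRM1 and RRM2 were called whichever array was left out. Over the 6 omissions the call held in 2 for MCM6, in 1 each for CHEK1 and ORC1, and in 0 for MCM3 and MCM7. RRM1 and MCM6 kept the call in all 8 other alternatives, and each of the rest lost it in at least 1. RRM2 lost it with the most variable probe set (limma adjusted p = 0.0609). Leaving out knockdown replicate 1, 2 or 3 left 2, 2 or 4 called genes, and leaving out control replicate 1, 2 or 3 left 5, 2 or 2.

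Among 10 E, A and B cyclins, their kinases CDK2 and CDK1 and CDC25 phosphatases, 3 were called lower and 0 higher. The shares over all genes were 4.63% and 6.36%, and the list's median was -0.14. CCNB1, the mitotic cyclin B1, was at -0.13, -0.18 and -0.20 in knockdown arrays, against 0.19, 0.20 and 0.13 in control arrays. It fell by 0.34 ± 0.04 on the log2 scale (SE, limma adjusted p = 0.00244). CCNB2 fell by 0.20, and its call held in 2 of the 6 omissions. In the fit on the most variable probe set per gene CCNB2 was not called (limma adjusted p = 0.0851). CCNB2 has 1 probe set, so its own values were the same there. Only the variance prior and the adjustment, which draw on all genes, differed. CCNE2, an E-type cyclin that acts after cyclin D, fell by 0.16, and its call was lost without any 1 of the 6 arrays. CCNE1 was at 0.09 and was not called (limma adjusted p = 0.363). When knockdown replicate 1 or 3 was left out, or control replicate 2 or 3, 1 gene of this list was called lower.

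Of 12 pocket proteins, E2F and DP factors 1 was called lower, against 4.63% of all genes. This was RBL1, which encodes the RB relative p107 and fell by 0.16 ± 0.04 (SE, limma adjusted p = 0.0355). That call held without knockdown replicate 2 and was lost without each of the other arrays. The largest other changes were -0.20 for E2F7, -0.14 for TFDP1 and 0.10 for TFDP2, which did not pass. The 3 CIP/KIP inhibitors, which act on CDK2 and also assemble cyclin D complexes, were not called. CDKN1A was at 0.09 ± 0.04 with groups that did not overlap (limma adjusted p = 0.205), CDKN1B at 0.03 and CDKN1C at 0.001.

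Of 6 genes for the CDK-activating kinase, CDC37 and HSP90, which load and activate CDK4 and CDK6, 1 was called lower. Among all genes 4.63% were called lower and 6.36% higher. CDK7 fell by 0.19 ± 0.05 (SE, limma adjusted p = 0.0400), a call that held without knockdown replicate 2 and was lost without any other array. Among 12 genes of cyclin D turnover 1 was called higher and 1 lower. FBXW8, an F-box protein described for cyclin D1, rose by 0.17 ± 0.04 (SE, limma adjusted p = 0.0486), a call lost without any 1 of the 6 arrays. CUL1, the scaffold of F-box ligases, fell by 0.22 ± 0.05 (SE, limma adjusted p = 0.0248), a call that held only without knockdown replicate 2 among the 6 omissions. AMBRA1, the adaptor that directs D-type cyclins to degradation, was at 0.06 and was not called.

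Around the INK4 genes, 0 of 9 measured neighbours of CDKN2A on chromosome 9 were called by limma, against 11.0% of all genes. Of the 9, 2 had an unadjusted p under 0.05, against 4816 of all 18132 genes. Whether the line holds these neighbours or transcribes them cannot be read from values relative to a median. CDKN2B-AS1, the antisense RNA of the locus, was at 0.13 ± 0.09 (SE, limma adjusted p = 0.420) and IFNE was at 0.13. MLLT3 was at -0.12 and FOCAD at -0.09. The 2 with an unadjusted p under 0.05 were IFNE and MLLT3, which also had groups that did not overlap. Of 14 Polycomb genes and other described regulators of the locus 0 were called higher and 3 lower, against 6.36% and 4.63% of all genes. Among the 3 was PCGF1, the target of the hairpin. ETS2 and ETS1, which encode factors that activate CDKN2A in fibroblasts, fell by 0.43 ± 0.04 and 0.29 ± 0.05 (SE, limma adjusted p = 0.000739 and 0.0144), and the call of ETS1 was lost without control replicate 1 or 3. PCGF2, a paralogue of PCGF1, was at 0.22 and was not called (limma adjusted p = 0.0790). With the median of probe sets per gene in place of the average, 1 gene of this list was called higher. Of 17 other cyclins and CDKs 1 was called higher, against 6.36% of all genes. This was CDK5, a kinase best known in neurons, which rose by 0.18 ± 0.04 (SE, limma adjusted p = 0.0294). Its call was lost without any 1 of the 6 arrays.

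**Figure D4:**
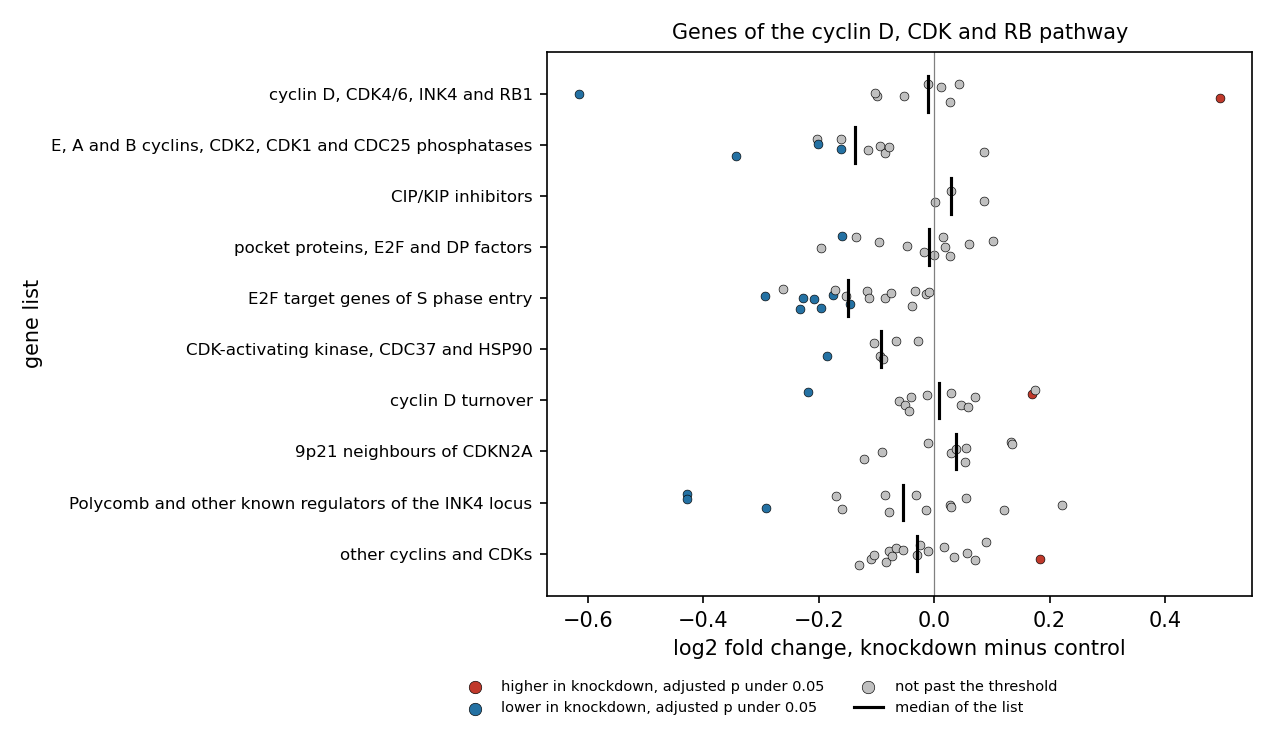
Log2 fold change, knockdown minus control (horizontal axis), of each gene in the 9 members and in 9 lists of the pathway. Each point is a gene, vertical scatter within a list has no meaning, and black lines are list medians. CCND1 and CDK6 lie at the 2 ends of the plot, and all points of the E2F target list lie left of 0.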

How the data were processed

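Gene expression was measured on 6 Affymetrix arrays, 3 of U87 cells with PCGF1 knockdown and 3 of negative control cells, grouped by the array titles. The deposited table holds log2 values that the authors made with RMA, per the submitters' processing notes, which give no version. RMA corrects background, normalises arrays and summarises probes; the base of the log comes from RMA and not from the file. A further step, described in no source used here, set the median of each probe set over the arrays to 0 (largest departure 4.85e-07), which removes absolute signal, so no filter on dim probe sets could be made.

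After 102 control probe sets were left out, probe sets with 1 symbol were averaged per gene and array. Knockdown minus control was fitted with limma 3.58.1 in R 4.3.3 (lmFit, eBayes, two-sided, no covariates) over all 18132 genes, and again over 49293 probe sets, with Benjamini-Hochberg adjustment over all of them. SE and 95% intervals are limma's. The code was tested on simulated data. The number of arrays limits the precision.

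The members and the pathway lists were chosen with earlier results of these data known. Text names PCGF1, all members, in each list up to 4 called genes per direction by size and otherwise up to 4 uncalled ones, and the 3 genes nearest each called member; CCNE1, E2F7, TFDP1, TFDP2, AMBRA1, PCGF2 and PDGFRB were named after their values were seen. Alternatives covered normalization, weights, variance prior, probe set choice, a replicate block and omission of each array. Promoter sequences are RefSeq's.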

Additional observations from a re-analysis of the deposited data

How the results depend on the processing

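The fold changes of the 9 members stayed on the same side of the threshold in all 126 combinations of member and alternative, and no called direction turned. Over the main fit and 14 alternatives the log2 fold change of CCND1 ranged from -0.73 to -0.56 (limma adjusted p 0.000626 to 0.00529) and that of CDK6 from 0.46 to 0.63 (limma adjusted p 0.000815 to 0.0141). The signs of CCND2, CDK4 and CDKN2B, never called, were not the same in all of them. Called probe sets of the members numbered 2 to 3 higher and 3 to 4 lower when 1 array was left out.

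Counts over the pathway lists depended more on the processing, from 2 genes higher and 16 lower. Leaving out an array gave 0 higher and 5 to 10 lower. With the replicate number as a block there were 0 higher and 9 lower, and members kept their calls. With the most variable probe set per gene there were 1 higher and 10 lower. The higher count was 1 with quantile normalization and 1 with the robust variance prior. The block uses residual degrees of freedom and leaving out an array uses fewer samples; other causes were not tested. Replicates share a number between groups, but the deviations of same-numbered arrays correlated at -0.04, -0.05 and 0.01, so the numbers were not taken to pair them. With every probe set centred, signal over background was not available.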
